A study of Mus musculus with 9 samples.

Results

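The genes described here encode splicing factors and heterogeneous nuclear ribonucleoproteins (hnRNPs). They are the protein-coding genes whose symbol begins with Srsf, Hnrnp, Sf3a, Sf3b, Snrp or Prpf, together with Sf1, U2af1, U2af2, Tra2a, Tra2b, Rbfox2, Mbnl1, Mbnl2, Mbnl3, Qk, Celf1, Ptbp1, Ptbp2 and Ptbp3. The rule uses names alone and no measured value. It found 78 of the 22469 genes of the table, of which 13776 are protein-coding, and all 78 passed the filter on low values. Nova1, which the rule also names, is not analysed here. By role, 12 genes encode SR proteins, 20 hnRNPs, 14 proteins of the U2 small nuclear ribonucleoprotein (snRNP) and of 3′ splice site recognition, 10 Sm and U1 proteins, 13 Prpf factors, and 9 regulators of alternative splicing.

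Introns are removed by the spliceosome, which is built anew on each intron from the U1, U2, U4, U5 and U6 snRNPs. U1 marks the 5′ splice site, SF1 and the U2AF pair mark the branch point and 3′ splice site, and U2 then replaces SF1 before the U4/U6.U5 tri-snRNP joins. SR proteins mostly promote the use of the exons they bind and hnRNPs mostly repress it, and tissue-regulated proteins such as PTBP, MBNL, CELF and RBFOX shift the balance at particular exons.

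The cells were 4T1, a mouse mammary tumour line. The groups were 4T1 cells of 2 knockout lines named KO-c19 and KO-c43, in which Nat10, the gene of an RNA acetyltransferase, was targeted, and wild-type 4T1 cells (WT). None of the 3 groups received a treatment, and each was collected 48 h after seeding as 3 biological replicates, which gave 9 libraries of ribosome-depleted total RNA. Each knockout line is 1 line and WT is 1 line, and the p-values thus reflect variation among cultures, not among independent knockouts. A bulk library cannot tell fewer cells of a type from less RNA per cell. The deposited values are counts of reads per gene that the authors normalized, called normalized counts below. A change is the difference between group means of log2(normalized count + 1), with its standard error (SE) from limma, a linear model fitted over all 17579 genes tested. A gene was called where its adjusted p was under 0.05, two-sided.

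The libraries held about 45600000 to 50100000 normalized counts, an estimated 41600000 to 55600000 reads. Nat10, the targeted gene, had 1748, 1761 and 1710 normalized counts in KO-c19, 1724, 1748 and 1766 in KO-c43, against 6432, 6501 and 6428 in WT, and changed by −1.89 ± 0.0368 (SE) in KO-c19 and −1.89 ± 0.0368 in KO-c43 (log2 units, with limma adjusted p = 1.78e-17 and 1.26e-17). The keratin genes Krt8 and Krt18, which mark epithelial cells, were abundant in all 3 groups and higher in both lines, whereas the other 4 of the 6 epithelial markers, Cdh1, Epcam, Cldn7 and Esrp1, were lower. The summed level of the 6 was 70848 to 76645 in KO-c19, 65564 to 67762 in KO-c43 and 91943 to 97309.5 in WT. Of 5 mesenchymal markers, Vim, Fn1, Twist1 and Zeb2 were higher in both lines and Zeb1 was too low to test, and their sum was 173735 to 181893 in KO-c19, 278925 to 286202 in KO-c43 and 96779.7 to 99095 in WT. Of the haematopoietic markers, Cd68 and Ptprc are in the table, and their sum was 247 to 312 in KO-c19, 174 to 215 in KO-c43 and 153 to 209.8 in WT. Cd68 rose in KO-c19 and was not called in KO-c43, and Ptprc, which defines blood cells, averaged 9.09 in KO-c19, 0.951 in KO-c43 and 1.04 in WT. The fibroblast markers in the table parted, Pdgfra being called higher and Col1a1 lower in both lines, and their sum was 838 to 904 in KO-c19, 403 to 502 in KO-c43 and 294 to 314 in WT. Col1a1 alone averaged 2.72 in KO-c19, 6.53 in KO-c43 and 28.5 in WT. The endothelial marker Pecam1 averaged 12.4 in KO-c19, 2.25 in KO-c43 and 7.01 in WT, and the neuronal marker Nova2 21.4 in KO-c19, 2.87 in KO-c43 and 8.59 in WT. Residual 18S ribosomal RNA (Rn18s) took 0.916% to 1.26% of the total in KO-c19, 1.27% to 2.59% in KO-c43 and 2.06% to 4.40% in WT. Mitochondrially encoded genes took 3.96% to 4.51% in KO-c19, 3.63% to 4.11% in KO-c43 and 2.58% to 3.32% in WT. The part of these shifts in the results that follow was not tested. KO-c19 replicate 1 stood farthest from its group: over the 78 genes its root mean square deviation from the group mean was 0.088 on the log2 scale, against 0.029 to 0.055 in the other 8 libraries.

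Most splicing factor and hnRNP genes were lower in the knockout lines, by modest amounts. In KO-c19, 62 fell, 4 rose and 12 were not called, where 34.9% of all genes tested were called lower and 32.8% higher. In KO-c43, 54 fell, 10 rose and 14 were not called, where 33.1% of all genes were called lower and 32.5% higher. These genes are abundant, with a mean of at least 1000 normalized counts for 76 of them. Among all 7276 genes at that level 49% were called lower and 32.2% higher in KO-c19, and 45.4% lower and 35% higher in KO-c43. The median log2 change of the 78 was −0.28 (KO-c19) and −0.23 (KO-c43), against 0.00 and 0.01 over all genes tested and −0.10 and −0.06 over the abundant ones. In 61 of the 78 genes every KO-c19 library lay below every WT library, and in 56 every KO-c43 library did. This count was not made over all genes or the abundant ones, so it does not set the 78 apart from them.

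**Figure D1:**
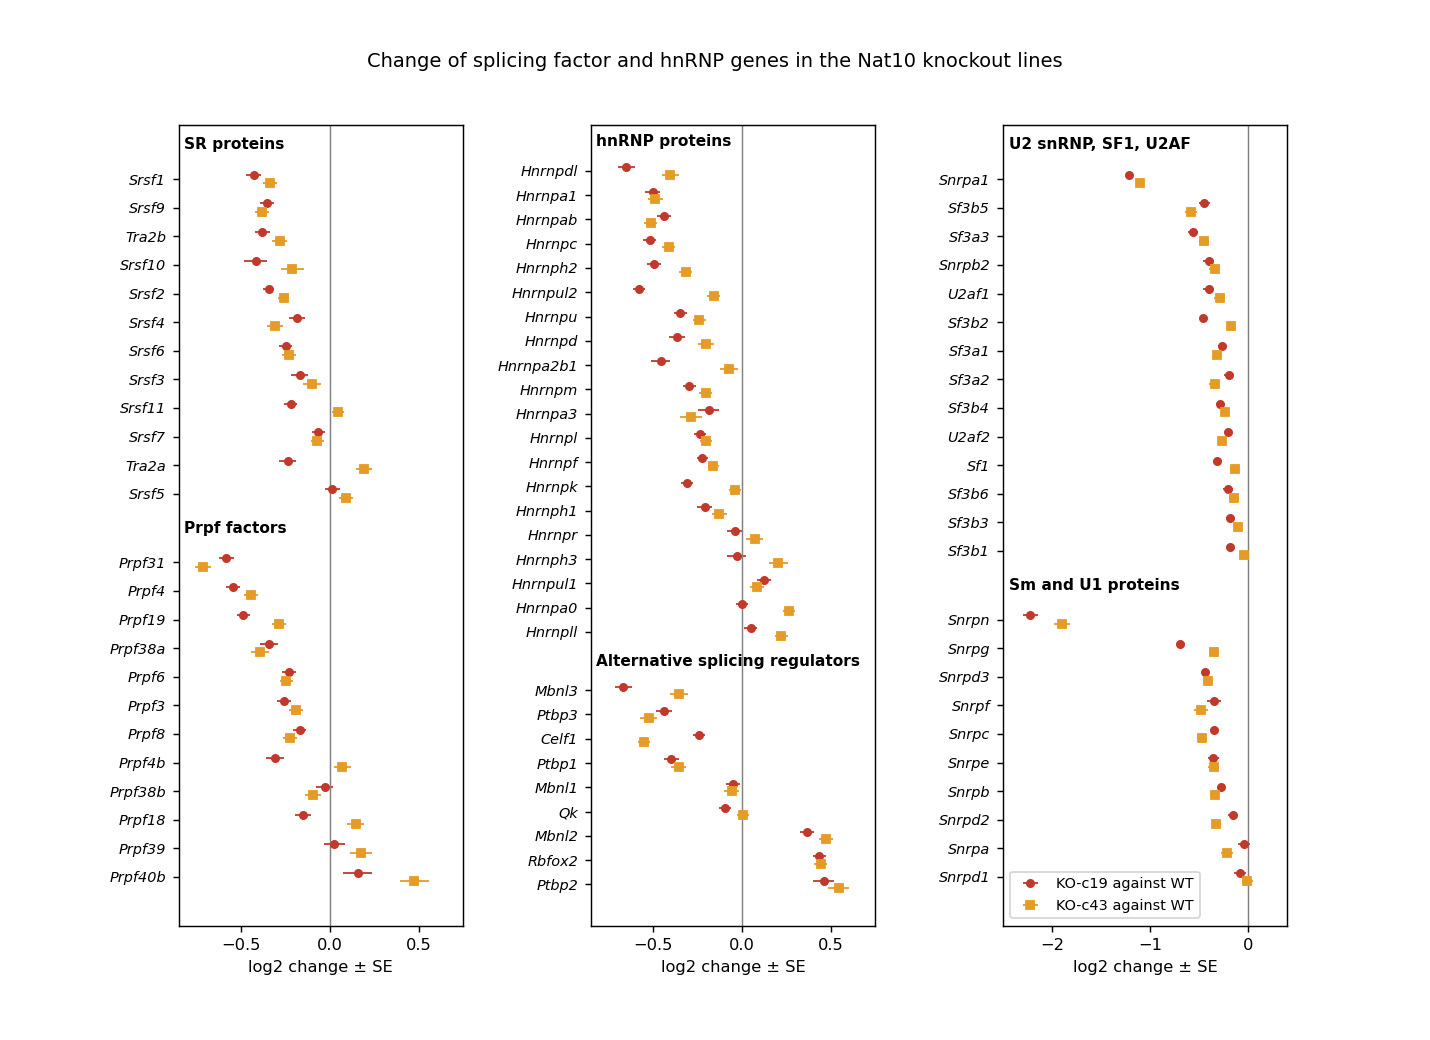
Log2 change against WT (x axis, log2 of normalized counts + 1) of 77 of the 78 genes by role, for KO-c19 (circles) and KO-c43 (squares), with bars of 1 SE from limma. Most points lie left of 0; Snrpn and Snrpa1 lie farthest left, and Ptbp2, Rbfox2 and Mbnl2 lie right of 0 in both lines. The right panel has a wider axis.

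The lines share the WT libraries, which ties their comparisons together, so their values are set side by side here. Called lower in both were 53 of the 78 genes, where 27% of all genes tested and 39.6% of the abundant ones were. Called higher in both were 3, namely Ptbp2, Rbfox2 and Mbnl2, where 25.4% of all genes were. Tra2a and Prpf18 were called in opposite directions, which 2.96% of all genes and 3.99% of the abundant ones were, and 6 genes were called in neither line. Only Snrpn and Snrpa1 of the 78 fell at least 2-fold in both lines, as 4.14% of all genes tested did. Counted without regard to the call, 738 of all 17579 genes and 145 of the 7276 abundant ones fell that far in both. With a minimum fold of 1.2 built into the test, 28 genes fell and 3 rose in KO-c19, where 19.8% of all genes fell and 20% rose. In KO-c43 18 fell and 4 rose by that test, where 18.1% of all genes fell and 19.2% rose.

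Summed over the 78 genes, the normalized counts were 1.68% ± 0.0348 of the library total in KO-c19, 1.72% ± 0.0154 in KO-c43 and 1.92% ± 0.0217 in WT (SD, n = 3 each). Every knockout library lay below every WT library, and p was 0.1 for each line by a two-sided exact permutation test against WT, the smallest value that 3 libraries against 3 allow. Leaving Rn18s and the mitochondrial genes out of the total gave 1.77% ± 0.0391 (KO-c19), 1.82% ± 0.0138 (KO-c43) and 2.04% ± 0.0181 (WT). Dividing each library by its total in place of the authors' normalization moved the median of all genes to 0.10 (KO-c19) and 0.05 (KO-c43), and then KO-c19 had 52 of the 78 lower and 8 higher, and KO-c43 had 50 lower and 15 higher. Under that scaling 44 were lower in both lines and 8 were higher in both. No share of all or abundant genes called under total scaling is given here, so these counts have no background beside them.

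Levels were compared between genes per kilobase of exon. In WT they ran from 58.6 normalized counts per kb for Prpf40b to 15387 for Hnrnpab, with a median of 1659. The 5 highest per kb in WT were Hnrnpab, Hnrnpf, Ptbp1, Srsf2 and Hnrnpa1. Ptbp2 stood second from the bottom of the 78 in WT, and had 175 ± 17.1 in KO-c19, 185 ± 0.790 in KO-c43 and 127 ± 4.85 in WT per kb. Hnrnpab, whose product binds nascent and nuclear RNA, had 11354 ± 319.9 in KO-c19, 10793 ± 514 in KO-c43 and 15387 ± 291 in WT per kb. Level in WT and change had a Spearman's rho over the 78 genes of −0.20 for KO-c19 and −0.18 for KO-c43. The same WT libraries enter both quantities, which by itself pulls rho down, and this rho was not taken over other genes. Exon length and change had a rho of 0.24 (KO-c19) and 0.42 (KO-c43), against 0.21 (KO-c19) and 0.23 (KO-c43) over 7243 abundant genes with a length and 0.04 (KO-c19) and 0.08 (KO-c43) over all 17484 tested genes with a length. These are descriptions across genes, which share their libraries and are not independent.

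**Figure D2:**
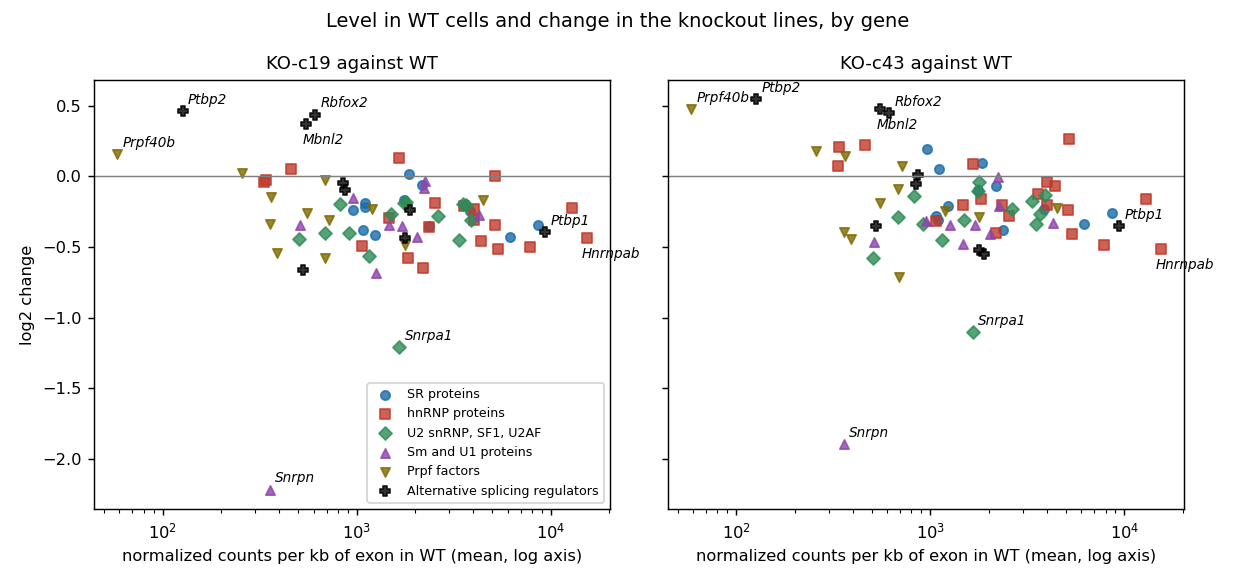
Mean level in WT (x axis, normalized counts per kb of exon, log axis) against the log2 change (y axis) of 77 of the 78 genes in KO-c19 (left) and KO-c43 (right), with symbols for the 6 roles. Points between 0 and −0.7 occur at most levels, and Snrpn and Snrpa1 lie below them. The genes lowest in WT, Prpf40b, Ptbp2 and Prpf39, lie above 0 in both lines.

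The genes for the U2 snRNP and 3′ splice site recognition fell nearly as a block: all 14 fell in KO-c19 and 13 in KO-c43, with none higher. These are 100% (KO-c19) and 92.9% (KO-c43), where 49% and 45.4% of abundant genes were lower. The median changes of the 14 were −0.30 (KO-c19) and −0.28 (KO-c43). Under total scaling 11 and 10 fell in these lines, for which no share over abundant genes is given here. The largest change was that of Snrpa1, for the A′ protein of U2 that binds the U2 RNA together with the B″ protein.

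Snrpa1 (ENSMUSG00000030512, plus strand, chromosome 7, bases 65708751 to 65724335, by the authors' table, which names no build and whose coordinates are not those of GRCm38) had 2272, 2260.5 and 2280.1 normalized counts in KO-c19, 2414, 2432 and 2482 in KO-c43, against 5304, 5235 and 5219 in WT. Every knockout library lay far below every WT library, at 43.2% (KO-c19) and 46.5% (KO-c43) of the WT mean, with KO-c43 a little above KO-c19. The change was −1.21 ± 0.0358 in KO-c19 (limma adjusted p = 4.43e-15) and −1.10 ± 0.0358 for KO-c43 (limma adjusted p = 1.46e-14). The neighbouring genes on chromosome 7, chosen after their values were seen, were also lower: Selenos changed by −0.28 (KO-c19) and −0.21 (KO-c43) (limma adjusted p = 0.00378 and 0.0257) and Pcsk6 by −1.84 (KO-c19) and −0.23 (KO-c43) (limma adjusted p = 1.18e-11 and 0.0457). Its partner Snrpb2, for the B″ protein, changed by −0.40 (KO-c19) and −0.34 (KO-c43). The sequence just upstream of the gene is shown because Snrpa1 stands apart from the other U2 genes. It is the 250 bases before the annotated start, from RefSeq, GRCm38.p6, chr7:66060086-66060335 on the plus strand, 5′ to 3′. Capitals mark a match to the GC box GGGCGG on either strand, the only one of 5 searched motifs that was found there.
Snrpa1: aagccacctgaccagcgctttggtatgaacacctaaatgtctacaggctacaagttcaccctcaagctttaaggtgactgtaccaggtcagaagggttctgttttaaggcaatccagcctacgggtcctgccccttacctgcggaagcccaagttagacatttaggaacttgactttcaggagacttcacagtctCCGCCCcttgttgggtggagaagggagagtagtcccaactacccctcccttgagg

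Sf3a3, for a subunit of the SF3a complex that helps U2 engage the branch point, had 2230, 2083 and 2214 normalized counts in KO-c19, 2182, 2332 and 2545 in KO-c43, against 3240.1, 3182 and 3207 in WT. Both lines lay below WT in every library, and the change was −0.56 ± 0.0502 in KO-c19 (limma adjusted p = 1.73e-08) and −0.45 ± 0.0502 for KO-c43 (limma adjusted p = 3.28e-07). Sf3b5, for a small subunit of the SF3b complex, changed by −0.44 ± 0.0588 in KO-c19 (limma adjusted p = 2.72e-06) and −0.58 ± 0.0588 for KO-c43 (limma adjusted p = 9.89e-08). U2af1 and U2af2 encode the subunits that read the 3′ splice site AG and the pyrimidine tract before it. U2af1 changed by −0.40 (KO-c19) and −0.29 (KO-c43) and U2af2 by −0.21 (KO-c19) and −0.27 (KO-c43), and both fell in both lines. Sf1, for the protein that first binds the branch point, changed by −0.31 (KO-c19) and −0.14 (KO-c43) and fell in both. Sf3b1, for the subunit that holds the branch point helix, fell in KO-c19 (−0.18 ± 0.0375, limma adjusted p = 0.000313) and was not called in KO-c43 (−0.04 ± 0.0375, limma adjusted p = 0.375). The difference between the lines for Sf3b1 passed the test (0.14 ± 0.0375, limma adjusted p = 0.00494).

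Among the 10 genes for the Sm core and U1 proteins, 8 (80%) fell in KO-c19 and 9 (90%) in KO-c43, with none higher. Of abundant genes, 49% were lower in KO-c19 and 45.4% in KO-c43. Sm proteins form the ring on which the U1, U2, U4 and U5 snRNPs are built. Snrpn, for SmN, the variant of SmB that is best known from brain and is expressed from the paternal allele, fell most of all 78 genes. Snrpn (ENSMUSG00000102252, minus strand, chromosome 7, bases 59632243 to 59789967, same table) had 160, 179.6 and 157 normalized counts in KO-c19, 208, 201 and 212 in KO-c43, against 767, 759.7 and 790.4 in WT. The knockout libraries held 21.4% (KO-c19) and 26.8% (KO-c43) of the WT mean and lay apart from WT. The change was −2.22 ± 0.0789 in KO-c19 (limma adjusted p = 5.39e-14) and −1.89 ± 0.0789 for KO-c43 (limma adjusted p = 4.93e-13), and the lines differed by 0.32 ± 0.0789, limma adjusted p = 0.00316. Gm38393, a gene that overlaps Snrpn on the same strand, changed by −1.74 (KO-c19) and −1.21 (KO-c43), and the long noncoding RNA gene Snhg14 of the same region by −0.86 (KO-c19) and −0.46 (KO-c43), all 4 values called lower by limma and both genes chosen after their values were seen.

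Snrpb, for the SmB protein itself, had 6882, 7242 and 6975 normalized counts in KO-c19, 6779.8, 6629 and 6819 in KO-c43, against 8381, 8813 and 8281 in WT. It fell in both lines, by far less than Snrpn: −0.27 ± 0.0368 in KO-c19 (limma adjusted p = 3.54e-06) and −0.33 ± 0.0368 for KO-c43 (limma adjusted p = 3.01e-07). Snrpb was far above Snrpn in each group, with 3559 ± 94.4 in KO-c19, 3412 ± 50.7 in KO-c43 and 4297 ± 143 in WT per kb for Snrpb and 76.7 ± 5.69 in KO-c19, 95.9 ± 2.38 in KO-c43 and 358 ± 7.41 in WT for Snrpn. The sources used here do not say how reads that match both genes were assigned. Snrpg, for SmG, had 1283, 1213 and 1204 normalized counts in KO-c19, 1563, 1501 and 1630.1 in KO-c43, against 1994, 1982 and 1981 in WT, with KO-c19 lowest, KO-c43 between and WT highest, without overlap. Its change was −0.69 ± 0.0457 in KO-c19 (limma adjusted p = 3.02e-10) and −0.34 ± 0.0457 for KO-c43 (limma adjusted p = 2.95e-06), and the lines differed by 0.34 ± 0.0457, limma adjusted p = 8.12e-06. Snrpd3, for SmD3, changed by −0.43 (KO-c19) and −0.41 (KO-c43) and fell in both. Snrpd1, for SmD1, was called in neither line (−0.08 ± 0.0592, limma adjusted p = 0.247, and −0.00 ± 0.0592, limma adjusted p = 0.955). Snrpd2, for SmD2, changed by −0.15 ± 0.0498 in KO-c19 (limma adjusted p = 0.0117) and −0.32 ± 0.0498 for KO-c43 (limma adjusted p = 1.91e-05), and its call in KO-c19 ended under total scaling, under quantile scaling and without WT replicate 2 (limma adjusted p = 0.0552; 0.00659 to 0.348 over the alternatives without a minimum fold). Of the U1 genes, Snrpc, for the C protein of U1, which contacts the 5′ splice site, fell in both lines (−0.34 in KO-c19, −0.47 in KO-c43), while Snrpa, for the A protein of U1, fell in KO-c43 (−0.21, limma adjusted p = 0.00584) and was not called in KO-c19 (−0.04, limma adjusted p = 0.61). The difference between the lines for Snrpa was −0.17 ± 0.0596, limma adjusted p = 0.03. It was not called without the intensity trend (limma adjusted p = 0.118), an alternative that, here and below, also left out robust empirical Bayes. Nor was it called without KO-c19 replicate 2, KO-c19 replicate 3, KO-c43 replicate 2 or KO-c43 replicate 3 (limma adjusted p = 0.119, 0.136, 0.0856 and 0.101). Its limma adjusted p ran from 9.08e-06 to 0.136 over the alternatives without a minimum fold.

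**Figure D3:**
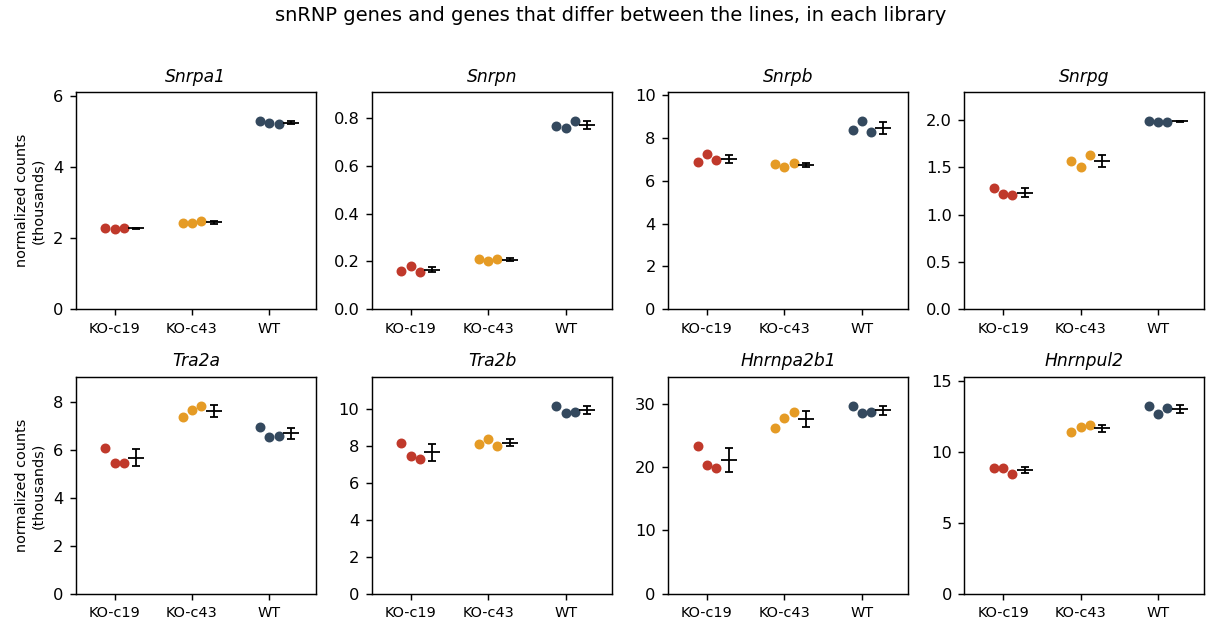
Normalized counts (y axis, divided by 1000, from 0) of 4 snRNP genes and 4 genes that differ between the lines, in each library of KO-c19, KO-c43 and WT. Points are libraries and the bar beside them is the mean ± SD of 3. Snrpa1 and Snrpn lie far below WT in both lines, while Tra2a lies below WT in KO-c19 and above WT in KO-c43.

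SR proteins carry RNA-binding domains and a tail of arginine and serine repeats, and most of them promote exon inclusion. Of the 12 genes, KO-c19 had 10 lower (83.3%) and none higher, and KO-c43 had 7 lower (58.3%) and 1 higher. Of abundant genes, 49% were lower in KO-c19 and 45.4% in KO-c43. Srsf1, the first SR protein described, had 28219, 24824 and 25601 normalized counts in KO-c19, 27708, 27674 and 28355 in KO-c43, against 36227, 34924 and 34597 in WT. Its knockout libraries lay below WT without overlap, and the change was −0.43 ± 0.0419 in KO-c19 (limma adjusted p = 5.47e-08) and −0.34 ± 0.0419 for KO-c43 (limma adjusted p = 1.31e-06). Srsf9, a close relative of Srsf1, changed by −0.35 ± 0.0395 in KO-c19 (limma adjusted p = 3.26e-07) and −0.38 ± 0.0395 for KO-c43 (limma adjusted p = 1.18e-07). Srsf2, the highest SR gene per kb in WT, changed by −0.34 (KO-c19) and −0.26 (KO-c43). Srsf3 fell in KO-c19 (−0.17 ± 0.0489, limma adjusted p = 0.00565) and its −0.10 in KO-c43 was not called (limma adjusted p = 0.0813). A processed pseudogene of Srsf3 in the same table held 1045 ± 168, 1189 ± 67.0 and 1609.8 ± 94.3 normalized counts in KO-c19, KO-c43 and WT, so reads may be split between them. Srsf5 and Srsf7 were called in neither line.

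Tra2a and Tra2b encode paralogous SR-like proteins that bind purine-rich exon enhancers, and they parted between the lines. Tra2a (ENSMUSG00000029817, minus strand, chromosome 6, bases 49220858 to 49240967, same table) had 6091, 5478 and 5469 normalized counts in KO-c19, 7385, 7663 and 7856 in KO-c43, against 6969, 6528 and 6574 in WT. KO-c19 lay below WT, KO-c43 lay above WT, and no libraries overlapped. The change was −0.24 ± 0.0451 in KO-c19 (limma adjusted p = 0.000151) and 0.19 ± 0.0451 for KO-c43 (limma adjusted p = 0.0012), and KO-c43 minus KO-c19 was 0.43 ± 0.0451, limma adjusted p = 4.83e-07. Both calls kept their direction under TMM, total and quantile scaling and ended with a minimum fold of 1.2. Tra2b had 8165, 7463 and 7274 normalized counts in KO-c19, 8099.6, 8383 and 7999 in KO-c43, against 10167, 9759 and 9830.2 in WT, with both lines below WT and overlapping each other. Its change was −0.38 ± 0.0422 in KO-c19 (limma adjusted p = 3.05e-07) and −0.28 ± 0.0422 for KO-c43 (limma adjusted p = 1.22e-05).

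The hnRNPs coat nascent transcripts and act in splicing, stability and export. Of the 20 genes, KO-c19 had 15 lower (75%) and 1 higher (5%), and KO-c43 had 13 lower (65%) and 3 higher (15%). Of abundant genes, 49% were lower and 32.2% higher in KO-c19, and 45.4% lower and 35% higher in KO-c43. Median changes of the 20 were −0.30 (KO-c19) and −0.18 (KO-c43), against −0.10 and −0.06 over the abundant genes. Those that fell most over both lines were Hnrnpdl, Hnrnpa1 and Hnrnpab. Hnrnpdl changed by −0.65 ± 0.0459 in KO-c19 (limma adjusted p = 6.94e-10) and −0.40 ± 0.0459 for KO-c43 (limma adjusted p = 4.55e-07). Hnrnpab had 31072, 32614 and 31072 normalized counts in KO-c19, 30268, 31321 and 28491 in KO-c43, against 42418, 42265 and 43738 in WT, with every knockout library below every WT library. The change was −0.44 ± 0.0380 in KO-c19 (limma adjusted p = 1.13e-08) and −0.51 ± 0.0380 for KO-c43 (limma adjusted p = 1.44e-09). Hnrnpul1, for a relative of the scaffold protein hnRNP U, was the gene that rose in KO-c19 (0.13 ± 0.0406, limma adjusted p = 0.011), though its KO-c19 and WT libraries overlapped. Hnrnpa0, Hnrnpll and Hnrnph3 were the 3 that rose in KO-c43, by 0.26, 0.22 and 0.21.

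Paralogues within the hnRNPs moved unequally. The A/B proteins, including hnRNP A1, are known to repress exons and to compete with SRSF1. Hnrnpa1 had 18610.2, 16987 and 16892 normalized counts in KO-c19, 17804, 16718 and 18480.3 in KO-c43, against 24803, 24620.5 and 24780.3 in WT. The lines lay together below WT, and the change was −0.50 ± 0.0427 in KO-c19 (limma adjusted p = 9.1e-09) and −0.49 ± 0.0427 for KO-c43 (limma adjusted p = 1.41e-08). Hnrnpa2b1 had 23256, 20335 and 19793 normalized counts in KO-c19, 26183, 27765 and 28723 in KO-c43, against 29695, 28442 and 28643 in WT. KO-c19 lay below both other groups, and KO-c43 overlapped WT. Hnrnpa2b1 changed by −0.46 ± 0.0521 in KO-c19 (limma adjusted p = 9.9e-07) and by −0.07 ± 0.0521 in KO-c43 (limma adjusted p = 0.248), with a difference of 0.39 ± 0.0521, limma adjusted p = 1.82e-05. Hnrnpa3 changed by −0.19 ± 0.0610 in KO-c19 (limma adjusted p = 0.0149) and −0.28 ± 0.0610 for KO-c43 (limma adjusted p = 0.000921). The KO-c19 call of Hnrnpa3 ended under total and quantile scaling, without the intensity trend, and without KO-c19 replicate 2, KO-c19 replicate 3 or WT replicate 1 (limma adjusted p = 0.064, 0.0576 and 0.0564 without these libraries, and 4.99e-06 to 0.22 over the alternatives without a minimum fold).

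Proteins of the H family bind runs of G. Hnrnph1 changed by −0.21 ± 0.0441 in KO-c19 (limma adjusted p = 0.000418) and −0.13 ± 0.0441 for KO-c43 (limma adjusted p = 0.0187), and Hnrnph2 by −0.49 ± 0.0382 in KO-c19 (limma adjusted p = 2.46e-09) and −0.32 ± 0.0382 for KO-c43 (limma adjusted p = 9.2e-07). The call of Hnrnph1 in KO-c43 ended under total and quantile scaling, without the intensity trend, and without KO-c43 replicate 2 or WT replicate 1 (limma adjusted p = 0.0533 and 0.0992 without these libraries, and 0.000476 to 0.48 over the alternatives without a minimum fold). Its call in KO-c19 ended under quantile scaling (limma adjusted p 1.67e-07 to 0.179 over the alternatives without a minimum fold). Hnrnph3 rose in KO-c43 (0.21 ± 0.0546, limma adjusted p = 0.00303) and its −0.03 in KO-c19 was not called (limma adjusted p = 0.653). Rufy2 overlaps Hnrnph3 on the opposite strand at 103% of its mean level, and the sources used here do not say whether counting was by strand. The same holds for Prpf39, Prpf6, Sf3a2, Sf3b3 and Snrpd3, the other 5 of the 78 genes that are overlapped by an opposite-strand gene at 10% or more of their level. Hnrnpl, for a protein that binds CA repeats, changed by −0.23 ± 0.0358 in KO-c19 (limma adjusted p = 1.4e-05) and −0.20 ± 0.0358 for KO-c43 (limma adjusted p = 8.17e-05). Its paralogue Hnrnpll, known for its part in Ptprc splicing in lymphocytes, changed by 0.05 ± 0.0355 in KO-c19 (limma adjusted p = 0.216) and 0.22 ± 0.0355 for KO-c43 (limma adjusted p = 2.34e-05). The rise in KO-c19 was also called under total scaling, quantile scaling and totals without Rn18s and mitochondrial genes (limma adjusted p = 0.00234, 0.0101 and 0.00279). Its limma adjusted p ran from 0.00234 to 0.473 over the alternatives without a minimum fold.

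The Prpf genes are named after yeast pre-mRNA processing mutants. Of the 13, KO-c19 had 10 lower (76.9%) and none higher, and KO-c43 had 8 lower (61.5%) and 3 higher. Of abundant genes, 49% were lower in KO-c19 and 45.4% in KO-c43. Prpf31, for a protein that bridges U4/U6 and U5 in the tri-snRNP, had 2543, 2541 and 2433 normalized counts in KO-c19, 2154, 2330.3 and 2378 in KO-c43, against 3770.3, 3785 and 3693 in WT. Every knockout library lay below WT, with KO-c43 lowest. The change was −0.58 ± 0.0430 in KO-c19 (limma adjusted p = 1.31e-09) and −0.71 ± 0.0430 for KO-c43 (limma adjusted p = 8.22e-11). Prpf4, for a U4/U6 protein, changed by −0.54 ± 0.0414 in KO-c19 (limma adjusted p = 1.89e-09) and −0.44 ± 0.0414 for KO-c43 (limma adjusted p = 3.2e-08). Prpf8, for the U5 protein at the catalytic core, and Prpf19, for a ubiquitin ligase of the activated spliceosome, fell in both lines (−0.17 in KO-c19, −0.22 in KO-c43 for Prpf8 and −0.49 in KO-c19, −0.29 in KO-c43 for Prpf19). The 3 that rose in KO-c43 were Prpf18 (0.15), Prpf39 (0.18) and Prpf40b (0.48).

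Prpf18, for a factor of the step that joins the exons, had 1761, 1758 and 1704 normalized counts in KO-c19, 2191, 2038 and 2187 in KO-c43, against 1988, 1973 and 1838 in WT. KO-c19 lay below WT and KO-c43 above it, without overlap. The change was −0.15 ± 0.0459 in KO-c19 (limma adjusted p = 0.00794) and 0.15 ± 0.0459 for KO-c43 (limma adjusted p = 0.00969), and the lines differed by 0.30 ± 0.0459, limma adjusted p = 4.56e-05. The fall in KO-c19 was not called under total or quantile scaling (limma adjusted p 0.004 to 0.313 over the alternatives without a minimum fold). The rise in KO-c43 was not called without WT replicate 3 (limma adjusted p = 0.068; 0.000956 to 0.068 over the alternatives without a minimum fold).

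Among the regulators of alternative splicing, paralogues moved in opposite directions. Of 9 genes, KO-c19 had 3 higher (33.3%) and 5 lower (55.6%), and KO-c43 had 3 higher (33.3%) and 4 lower (44.4%). These shares lay near those of abundant genes, 32.2% higher and 49% lower in KO-c19, and 35% and 45.4% in KO-c43. PTBP proteins bind pyrimidine-rich tracts and mostly repress exons. PTBP1 is the widespread form, PTBP2 the form typical of neurons and PTBP3 a form first described in blood cells. Ptbp1 (ENSMUSG00000006498, plus strand, chromosome 10, bases 79690261 to 79700605, same table) had 31552, 35058 and 34601 normalized counts in KO-c19, 35994, 35040.4 and 33194 in KO-c43, against 43322, 45015 and 44823 in WT. Both lines lay below WT and overlapped each other. The change was −0.40 ± 0.0421 in KO-c19 (limma adjusted p = 1.61e-07) and −0.35 ± 0.0421 for KO-c43 (limma adjusted p = 7.37e-07).

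Ptbp3 had 10624, 9399.8 and 9579.7 normalized counts in KO-c19, 8842, 9388 and 9591 in KO-c43, against 13689.9, 13355 and 12966 in WT, again with both lines below WT, and changed by −0.44 ± 0.0458 in KO-c19 (limma adjusted p = 1.43e-07) and −0.52 ± 0.0458 for KO-c43 (limma adjusted p = 1.3e-08). Ptbp2 (ENSMUSG00000028134, minus strand, chromosome 3, bases 119512391 to 119578115) had 1779.8, 1476 and 1559.8 normalized counts in KO-c19, 1689, 1703 and 1699 in KO-c43, against 1196, 1181 and 1112 in WT. Here every knockout library lay above every WT library. The change was 0.46 ± 0.0585 in KO-c19 (limma adjusted p = 1.62e-06) and 0.55 ± 0.0585 for KO-c43 (limma adjusted p = 2.02e-07), a fold of 1.38 (KO-c19) and 1.46 (KO-c43). Ptbp2 stayed far below Ptbp1 per kb in every group, with 175, 185 and 127 for Ptbp2 and 7117, 7329.8 and 9364 for Ptbp1 in KO-c19, KO-c43 and WT. A long noncoding gene of the table, Gm42664, lies within Ptbp2 on the same strand at 20.2% of its mean level.

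The upstream windows of the pair are shown side by side because the genes moved in opposite directions. They are the 250 bases before the RefSeq start in GRCm38.p6, 5′ to 3′ on the gene's strand, at chr10:79854182-79854431 on the plus strand for Ptbp1 and chr3:119783389-119783638 on the minus strand for Ptbp2. Capitals mark matches, on either strand, to the E-box CACGTG, the GC box GGGCGG, the CCAAT box, the ETS site CCGGAAG or TATAAA.
Ptbp1: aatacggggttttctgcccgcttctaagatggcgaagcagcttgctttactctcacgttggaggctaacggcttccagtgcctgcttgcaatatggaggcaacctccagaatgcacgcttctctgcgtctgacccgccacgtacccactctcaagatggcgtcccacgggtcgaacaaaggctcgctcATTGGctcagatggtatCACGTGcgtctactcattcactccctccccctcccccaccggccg
Ptbp2: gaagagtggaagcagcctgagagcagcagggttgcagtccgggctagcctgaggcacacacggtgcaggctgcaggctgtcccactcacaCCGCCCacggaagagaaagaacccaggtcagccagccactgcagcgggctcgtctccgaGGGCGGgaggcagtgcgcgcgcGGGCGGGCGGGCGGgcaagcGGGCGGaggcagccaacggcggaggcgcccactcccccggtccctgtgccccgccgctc
The Ptbp1 window held an E-box and a CCAAT box and no GC box, and the Ptbp2 window held 6 GC box matches and none of the other 4 motifs. These are matches of letters, and no binding was measured.

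**Figure D4:**
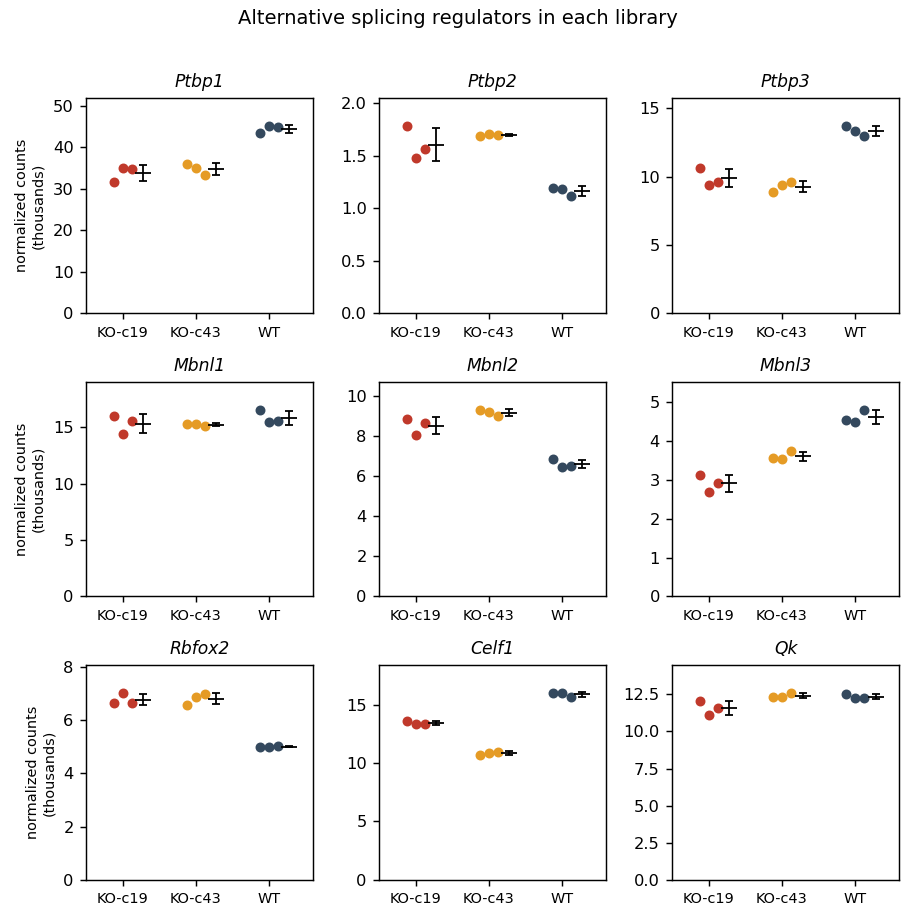
Normalized counts (y axis, divided by 1000, from 0) of the 9 regulators of alternative splicing in each library of KO-c19, KO-c43 and WT. Points are libraries and the bar beside them is the mean ± SD of 3. Ptbp1, Ptbp3, Mbnl3 and Celf1 lie below WT in both lines, and Ptbp2, Mbnl2 and Rbfox2 lie above WT.

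MBNL proteins favour adult splicing patterns and are known for their loss in myotonic dystrophy. Mbnl2 (ENSMUSG00000022139, plus strand, chromosome 14, bases 120513081 to 120669109) had 8839.9, 8037 and 8637 normalized counts in KO-c19, 9311, 9180.4 and 8984 in KO-c43, against 6827, 6446 and 6502 in WT. Every knockout library lay above every WT library, and the change was 0.37 ± 0.0403 in KO-c19 (limma adjusted p = 2.6e-07) and 0.47 ± 0.0403 for KO-c43 (limma adjusted p = 8.97e-09). Mbnl3 (ENSMUSG00000036109, minus strand, chromosome X, bases 50206146 to 50295409) had 3117, 2690.1 and 2925 normalized counts in KO-c19, 3552, 3539 and 3744 in KO-c43, against 4550.2, 4479 and 4811 in WT. Here KO-c19 was lowest and WT highest, without overlap. The change was −0.67 ± 0.0496 in KO-c19 (limma adjusted p = 1.41e-09) and −0.35 ± 0.0496 for KO-c43 (limma adjusted p = 5.71e-06), and the lines differed by 0.31 ± 0.0496, limma adjusted p = 5.64e-05. Mbnl1, the highest of the 3 per kb in WT, was called in neither line (−0.05 ± 0.0413, limma adjusted p = 0.299, and −0.06 ± 0.0413, limma adjusted p = 0.238). Per kb, WT held 847 for Mbnl1, 549.6 for Mbnl2 and 528 for Mbnl3. Among the KO-c43 means per kb, Mbnl2 had 764 and Mbnl3 413. The windows of the pair that moved in opposite directions are given in the same form, at chr14:120275419-120275668 on the plus strand for Mbnl2 and chrX:51205991-51206240 on the minus strand for Mbnl3.
Mbnl2: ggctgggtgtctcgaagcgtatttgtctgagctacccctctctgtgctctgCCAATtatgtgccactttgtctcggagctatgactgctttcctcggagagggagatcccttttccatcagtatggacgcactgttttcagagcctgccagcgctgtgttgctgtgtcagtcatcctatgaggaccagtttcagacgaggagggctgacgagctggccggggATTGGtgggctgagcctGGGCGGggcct
Mbnl3: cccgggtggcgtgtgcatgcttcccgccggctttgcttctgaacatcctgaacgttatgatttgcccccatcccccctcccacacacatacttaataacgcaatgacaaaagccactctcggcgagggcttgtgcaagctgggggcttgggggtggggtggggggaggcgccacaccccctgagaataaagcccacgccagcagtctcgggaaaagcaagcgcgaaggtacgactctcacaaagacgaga
The Mbnl2 window held a GC box and 2 CCAAT boxes. None of the 5 motifs was found in the Mbnl3 window.

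Rbfox2, for a protein that binds GCAUG and is known to shape splicing in the epithelial-mesenchymal transition, had 6620.1, 7014 and 6651 normalized counts in KO-c19, 6571, 6862 and 6971 in KO-c43, against 4986, 4977 and 5019.8 in WT. The lines overlapped each other and lay above WT, and the change was 0.44 ± 0.0372 in KO-c19 (limma adjusted p = 8.84e-09) and 0.45 ± 0.0372 for KO-c43 (limma adjusted p = 7.13e-09). Celf1, for a protein that binds GU-rich RNA and often opposes MBNL, had 13642, 13378 and 13321 normalized counts in KO-c19, 10679, 10895 and 10978 in KO-c43, against 15969, 16016 and 15663 in WT. KO-c43 was lowest, KO-c19 between and WT highest, without overlap. The change was −0.24 ± 0.0322 in KO-c19 (limma adjusted p = 3.17e-06) and −0.55 ± 0.0322 for KO-c43 (limma adjusted p = 5.62e-11), and the lines differed by −0.31 ± 0.0322, limma adjusted p = 4.19e-07. Qk, for the quaking protein, had 12079, 11112 and 11549 normalized counts in KO-c19, 12293, 12350.1 and 12603 in KO-c43, against 12548, 12246 and 12276 in WT. KO-c19 lay just below WT, and KO-c43 overlapped it. The change of −0.09 ± 0.0362 in KO-c19 (limma adjusted p = 0.0286) was called under the authors' normalization but not under TMM, quantile or total scaling, and under totals it turned to 0.0036. It was also not called without KO-c19 replicate 2, KO-c19 replicate 3 or any 1 of the WT libraries (limma adjusted p = 0.146, 0.0668, 0.0998, 0.0516 and 0.0572, and 0.00121 to 0.94 over the alternatives without a minimum fold). In KO-c43 Qk changed by 0.01 ± 0.0362 (limma adjusted p = 0.878).

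Set against each other, KO-c43 was higher than KO-c19 for 30 of the 78 genes and lower for 7, where 21.1% of all genes tested were called higher and 18.3% lower, and 30.4% and 21.3% of the abundant genes. The median difference was 0.08. Under total scaling the split was 19 higher and 13 lower, with no share over all genes given for that scaling. Without KO-c19 replicate 1, the library that stood apart, 42 were higher and 11 lower, and without KO-c19 replicate 2 the counts were 22 and 2. The hnRNP genes accounted for 12 of the 30 and none of the 7. Besides Tra2a, the genes most above KO-c19 were Hnrnpul2 and Hnrnpa2b1, and those most below were Celf1, Snrpa and Snrpd2. The difference for Snrpd2 was −0.17 ± 0.0498, limma adjusted p = 0.0128, and it was not called without the intensity trend, without KO-c19 replicate 2 or without KO-c43 replicate 2 (limma adjusted p = 0.0598, 0.0668 and 0.0806, and 0.000712 to 0.0806 over the alternatives without a minimum fold). Hnrnpul2, for another relative of hnRNP U, had 8853, 8893 and 8462 normalized counts in KO-c19, 11411, 11754 and 11907 in KO-c43, against 13285, 12718 and 13132 in WT. The 3 groups did not overlap, with KO-c43 between KO-c19 and WT. Its change was −0.58 ± 0.0355 in KO-c19 (limma adjusted p = 9.82e-11) and −0.16 ± 0.0355 for KO-c43 (limma adjusted p = 0.000755), and KO-c43 minus KO-c19 was 0.42 ± 0.0355, limma adjusted p = 3.09e-08. Tra2a and Hnrnpul2 were also the 2 genes whose difference passed with a minimum fold of 1.2, where 7.32% of all genes were called higher and 5.77% lower.

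Other parts of the spliceosome were read from 9 lists of genes outside the 78, with 154 genes tested. Of these, KO-c19 had 103 lower (66.9%) and 17 higher (11%), and KO-c43 had 98 lower (63.6%) and 18 higher (11.7%). Over all genes tested, as above, 34.9% were lower and 32.8% higher in KO-c19, and 33.1% lower and 32.5% higher in KO-c43, and over the abundant ones 49% and 45.4% were lower in these lines. Dividing by totals gave 87 lower and 28 higher (KO-c19), and 90 lower and 25 higher (KO-c43), with no share over all genes given for that scaling. The U4/U6.U5 tri-snRNP and U5 list fell in 17 of 19 genes in KO-c19 and 15 in KO-c43, with 1 higher in each. Usp39, for a factor needed for tri-snRNP entry, changed by −1.27 ± 0.0396 in KO-c19 (limma adjusted p = 9.52e-15) and −0.81 ± 0.0396 for KO-c43 (limma adjusted p = 4.66e-12), and Lsm3, for a protein of the U6 ring, by −0.90 (KO-c19) and −0.53 (KO-c43). Eftud2, for the U5 GTPase, and Snu13, for a protein that binds the U4 RNA, also fell in both (−0.60 in KO-c19, −0.61 in KO-c43 for Eftud2 and −0.60 in KO-c19, −0.64 in KO-c43 for Snu13).

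Among 17 proteins associated with U1 and U2, 13 (76.5%) fell in KO-c19 and 11 (64.7%) in KO-c43, with none higher. For this list and the next ones, 34.9% of all genes and 49% of abundant genes were lower in KO-c19. In KO-c43 these shares were 33.1% and 45.4%. The members named by the smallest p-values were Ddx39a, for a helicase of splicing and export (−0.85 in KO-c19, −0.76 in KO-c43), Phf5a, for an SF3b subunit (−0.64 in KO-c19, −0.74 in KO-c43), Smndc1 (−0.81 in KO-c19, −0.53 in KO-c43) and Dnajc8 (−0.44 in KO-c19, −0.33 in KO-c43). Of 24 factors of activation, catalysis and disassembly, KO-c19 had 19 lower (79.2%) and 2 higher, and KO-c43 had 17 lower (70.8%) and 1 higher. Aqr, for a helicase on the intron, changed by −0.64 (KO-c19) and −0.61 (KO-c43), and Isy1, Cwc22 and Bud31 also fell in both lines. Of 13 exon junction complex genes, 10 (76.9%) fell in KO-c19 and 11 (84.6%) in KO-c43, with none and 1 higher. Eif4a3 and Magoh, for core subunits of that complex, fell in both (−0.50 in KO-c19, −0.47 in KO-c43 for Eif4a3 and −0.60 in KO-c19, −0.79 in KO-c43 for Magoh).

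In snRNP assembly the SMN complex and the methylosome load Sm rings onto snRNA. The list for this step fell in 13 of 16 genes (81.25%) in each line, with none higher. Of abundant genes, 49% were lower in KO-c19 and 45.4% in KO-c43. Gemin5, which recognizes the snRNA, had 3901, 4071 and 4068 normalized counts in KO-c19, 4033, 4099 and 3997 in KO-c43, against 7788, 8056 and 7899 in WT. Both lines lay below WT without overlap, and the change was −0.98 ± 0.0355 in KO-c19 (limma adjusted p = 7e-14) and −0.97 ± 0.0355 for KO-c43 (limma adjusted p = 8.48e-14). Prmt5 and Wdr77, for the methyltransferase pair that modifies Sm proteins, fell in both (−0.78 in KO-c19, −0.79 in KO-c43 for Prmt5 and −0.65 in KO-c19, −0.56 in KO-c43 for Wdr77), as did Clns1a, for their Sm-binding partner (−0.58 in KO-c19, −0.58 in KO-c43).

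The lists of the minor spliceosome, of SR protein kinases and of other regulators had genes called in both directions. Their shares lay nearer those over all genes tested, except for the other regulators in KO-c19, of which 54.5% were lower. Of 11 tested genes of the minor spliceosome, which removes the rare U12-type introns, KO-c19 had 3 higher and 3 lower (27.3% each), and KO-c43 had 4 higher (36.4%) and 3 lower (27.3%), near the shares over all genes. Snrnp35, for a U11/U12 protein, rose in both lines (0.45 in KO-c19, 0.34 in KO-c43), and Zrsr2, which recognizes the U12-type 3′ splice site, changed by −0.20 (KO-c19) and −0.26 (KO-c43), its KO-c19 call ending under total scaling (limma adjusted p 0.00025 to 0.0708 over the alternatives without a minimum fold). Of 10 kinases, phosphatases and importers of SR proteins, KO-c19 had 4 higher (40%) and 3 lower (30%). In KO-c43 3 were higher (30%) and 4 lower (40%). Over all genes tested 32.8% were higher and 34.9% lower in KO-c19, and 32.5% and 33.1% in KO-c43. Clk1, for a nuclear kinase of SR proteins, had 4398, 3786 and 3950 normalized counts in KO-c19, 3575, 3629 and 3736 in KO-c43, against 3061, 2644 and 2549.9 in WT. The knockout libraries lay above WT without overlap, and the change was 0.56 ± 0.0650 in KO-c19 (limma adjusted p = 2.3e-06) and 0.41 ± 0.0650 for KO-c43 (limma adjusted p = 5.44e-05). Srpk1, for a kinase that sends SR proteins to the nucleus, fell in both (−0.50 in KO-c19, −0.36 in KO-c43), as did the SR importer gene Tnpo3 (−0.75 in KO-c19, −0.30 in KO-c43).

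Of 22 tested genes for other regulators of alternative splicing, KO-c19 had 6 higher (27.3%) and 12 lower (54.5%). In KO-c43 7 were higher (31.8%) and 8 lower (36.4%). Of abundant genes, 32.2% were higher and 49% lower in KO-c19, and 35% and 45.4% in KO-c43. Esrp1 and Esrp2 encode splicing regulators of epithelial cells. Esrp1 was listed at 0 in every library of KO-c19, at 0, 0 and 1.05 in KO-c43 and at 4212, 4491 and 4416 in WT, so no fold is given. Esrp2 had 982, 1063 and 1019 normalized counts in KO-c19, 719, 683 and 695 in KO-c43, against 2168, 2301 and 2176 in WT. KO-c43 was lowest and WT highest, without overlap, and the change was −1.12 ± 0.0495 in KO-c19 (limma adjusted p = 1.11e-12) and −1.66 ± 0.0495 for KO-c43 (limma adjusted p = 4.86e-15). Rbm47, for a further epithelial regulator, rose in both lines (0.47 in KO-c19, 0.68 in KO-c43), and Elavl1, for the RNA-stabilizing protein HuR, fell in both (−0.47 in KO-c19, −0.42 in KO-c43). The list of FET, Tardbp and other abundant nuclear RNA-binding proteins holds 22. Of these, KO-c19 had 13 lower (59.1%) and 1 higher, and KO-c43 had 16 lower (72.7%) and 1 higher. Pcbp3, for a poly(C)-binding protein, was the gene that rose in both (1.27 in KO-c19, 0.75 in KO-c43), and Tardbp, for TDP-43, changed by −0.42 (KO-c19) and −0.32 (KO-c43).

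**Figure D5:**
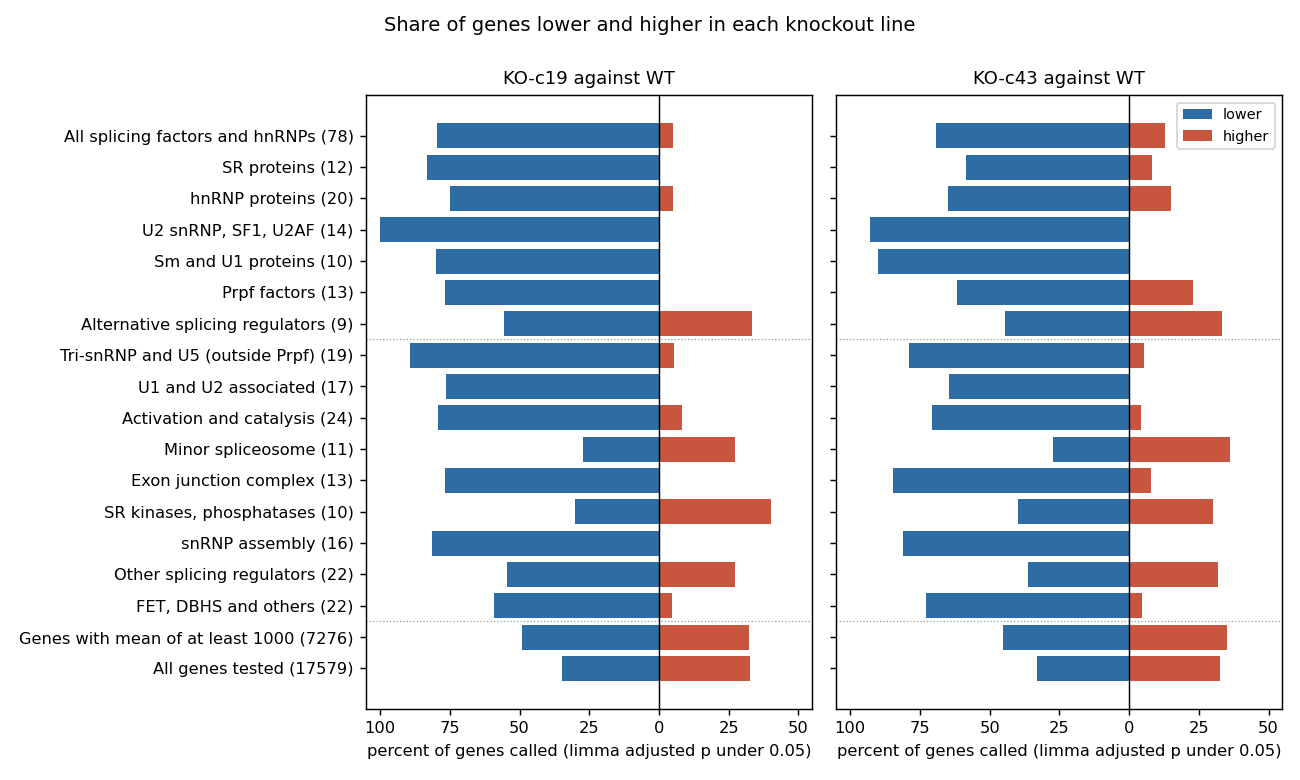
Percent of genes called lower (left of 0) and higher (right of 0) by limma in KO-c19 and KO-c43 against WT, for the 78 genes, their 6 roles, the 9 other lists, abundant genes and all genes tested; the number of genes is in parentheses. Most roles and lists extend farther left than the bottom bars, while the regulators, the minor spliceosome and the SR kinases extend to both sides.

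Promoter windows were compared with those of all genes, as a feature that the rule did not use. RefSeq gave windows of 300 bases, 250 before and 50 after the start, for 67 of the 78 genes, 89 windows in all, and 32851 windows for all genes. The ETS site CCGGAAG was found on either strand in 28.09% of the windows of the 67 genes and in 8.858% of all windows. The GC box GGGCGG was in 66.29% and 35.66%, the E-box CACGTG in 14.61% and 7.15%, CCAAT in 48.31% and 37.41%, and TATAAA in 8.989% and 13.62%, in the same order. Among the windows of genes that fell in both lines, 32.26% held the ETS site and 12.9% the E-box. Windows of 1 gene overlap and share their letters, and these shares were not tested. The windows of all genes were not limited to genes abundant in these cells, as 76 of the 78 are. No share over abundant genes was taken, so a trait of abundant genes and one of these genes cannot be told apart here.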

How the data were processed

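Gene expression was measured by RNA-seq of stranded, ribosome-depleted total RNA in 9 libraries, 3 each of KO-c19, KO-c43 and WT. Trimming with cutadapt, alignment with STAR to mm10 and analysis in Partek are recorded per the submitters' processing notes. The sources used here do not name the counter, the annotation, the versions or the strand setting of the counting. The deposited values are a normalized signal, counts of reads per gene that the authors scaled between libraries. The table's build is not named. Its starts equal those of GENCODE M21 (GRCm38) for 574 of 22292 genes, so its coordinates are of another build, and its end coordinates are printed as the last base. Exon lengths came from GENCODE M21 (GRCm38), matched by gene ID.

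Values were analysed as log2(value + 1) with limma 3.58.1 in R 4.3.3, using 1 mean per group, an intensity trend and robust empirical Bayes. Genes with at least 10 normalized counts in at least 3 libraries were kept, which left 17579 of 22469. P-values were two-sided and adjusted over all of them by Benjamini-Hochberg, with a threshold of 0.05. The code was tested on simulated data. The depth in reads was estimated from the step between low values, of which 82.9% to 83.9% lay within 0.1 of whole multiples, too few for reads to be recovered for a count test.

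The members, roles and lists were chosen with earlier results of these data known. Genes were named by rule: all regulators, set paralogues, up to 3 per direction in each role by mean change over both lines, genes called in opposite directions, the 3 largest differences between the lines in each direction, and up to 4 per list by adjusted p. Genes named beside these were chosen for their role after their values were seen. The values of 1 of the 78 genes are not reported here, though it is in the counts. Alternatives were pseudocounts of 0.5 and 5, no filter and a filter of at least 50, TMM factors, totals and quantiles. Another dropped the intensity trend and robust empirical Bayes together. The rest were only the groups compared, a minimum fold of 1.2 (limma treat), a replicate block and leaving out each library. Totals without Rn18s and mitochondrial genes were added after seeing the data.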

Additional observations from a re-analysis of the deposited data

Results flagged for a closer look

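These genes were picked out because the 2 knockout lines differed from each other by limma's test of the difference itself (adjusted p under 0.05 over 17579 genes). Of the 78 genes 37 passed that test, and the values here are those of the 18 that the naming rule also took. Among those it did not take, Prpf4b (0.38), Prpf40b (0.32), Sf3b2 (0.28), Hnrnpk (0.27) and Srsf11 (0.27), chosen after their values were seen, had differences as large as many of these. The values are the log2 level of KO-c43 minus that of KO-c19. KO-c43 was higher for Tra2a (0.43), Hnrnpul2 (0.42), Hnrnpa2b1 (0.39), Snrpg (0.34), Snrpn (0.32), Mbnl3 (0.31), Prpf18 (0.30), Hnrnpdl (0.25), Hnrnph3 (0.23), Hnrnph2 (0.18), Hnrnpll (0.17), Mbnl2 (0.11), Snrpa1 (0.10) and Qk (0.10). KO-c43 was lower for Celf1 (−0.31), Snrpd2 (−0.17), Snrpa (−0.17) and Prpf31 (−0.13). With a minimum fold of 1.2 the differences of Tra2a and Hnrnpul2 were still called and the others were not. Other alternatives also ended 6 of these calls. Mbnl2, Snrpa1 and Qk were not called under total scaling (log2 0.0555, 0.0526 and 0.0488) or quantile scaling (0.0663, 0.0631 and 0.0278), among others, with limma adjusted p of 0.00456 to 0.309 for Mbnl2, 0.0194 to 0.271 for Snrpa1 and 0.00143 to 0.582 for Qk over the alternatives without a minimum fold. Snrpa, Snrpd2 and Prpf31 were not called without the intensity trend or without some single libraries, for Prpf31 KO-c19 replicate 2 or KO-c43 replicate 1 (limma adjusted p = 0.0601, 0.0645 and 0.124, and 0.00207 to 0.124 over the alternatives without a minimum fold). KO-c19 replicate 1 stood apart from its group, and its part in these differences was not tested beyond leaving it out.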

How the results depend on the processing

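The excess of lower over higher genes was found in both lines under every alternative run. For the median log2 change, TMM scaling gave −0.26 in KO-c19. Total scaling, totals without Rn18s and mitochondrial genes, and quantile scaling gave −0.18, −0.19 and −0.18 (KO-c19), −0.18, −0.19 and −0.17 (KO-c43), and 0.03, 0.0355 and 0.0313 for KO-c43 against KO-c19. In the same order, 8, 8 and 7 genes rose in KO-c19, 8, 8 and 7 rose in both lines, 28, 28 and 27 list genes rose in KO-c19, and 13, 13 and 14 genes were lower in KO-c43 than in KO-c19. Both totals gave 19 genes higher in KO-c43 than in KO-c19. Shares over all genes under these scalings are not given here. Without the intensity trend and robust empirical Bayes together, 22 differed between the lines, 1 of them lower. A minimum fold of 1.2 left 31 calls in KO-c19 (28 lower), 22 in KO-c43 (4 higher, 18 lower), 17 in both (14 lower) and 2 between the lines (2 higher, 0 lower), and 53 lower and 6 higher list genes in KO-c19 and 46 and 7 in KO-c43. By construction that test asks for a larger change; for the others the cause was not tested. Leaving out 1 library gave 63 to 70 calls in KO-c19 (60 to 66 lower, 3 to 5 higher), 61 to 68 in KO-c43 (52 to 56 lower, 9 to 12 higher), 53 to 59 in both, and 24 to 53 between the lines (20 to 42 higher, 2 to 11 lower). The medians then ran from −0.29 to −0.2688 (KO-c19), −0.2453 to −0.2167 (KO-c43) and 0.0661 to 0.1179 (KO-c43 against KO-c19). The count between the lines was 53 without KO-c19 replicate 1 and 24 without KO-c19 replicate 2. Of single genes, Qk in KO-c19 turned to 0.0036 under total scaling. Of 4557 values of named genes under the alternatives, 4370 kept their direction and side of the threshold, 150 lost the call, 36 gained one and 1 turned.

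Samples with the same replicate number did not deviate together (correlations −0.0914 to 0.0754). The labels do not say whether a number marks a shared day or batch, and these correlations cannot settle it. With a replicate block 66 genes were called in KO-c19, 64 in KO-c43, 56 in both and 36 between the lines.

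The deposited values carry no raw counts, so tests rest on the spread of 3 cultures of each line. Changes of low genes are understated on the log2(value + 1) scale. Each line is single, so what belongs to the knockout and what to the line cannot be told apart. How reads of paralogues, pseudogenes and overlapping genes were assigned is not stated. An RNA level says nothing of protein or of splicing itself, which was not measured here.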
